A study of Mus musculus with 6 samples.

Results

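Translation initiation factors bring the ribosome, the initiator tRNA and the 5′ end of an mRNA together at the start codon. The genes described here are all those of the deposited table whose symbol starts with Eif and a digit, which includes the kinases of eIF2, the inhibitors of eIF4E and a pair of pseudogenes. They number 55 of 17027 gene symbols and 239 of 50829 isoforms. Each was followed in retinal ganglion cells (RGCs), the neurons whose axons form the optic nerve, of wild-type C57/6NCrl mice. The 3 ages were day 18 of gestation (E18), day 5 after birth (P5) and 8 weeks (Adult), and each was covered by 2 libraries. No group carried a transgene or a treatment. The labels say that the cells were selected on antibody to the surface antigen Thy1, once macrophages and amacrine cells had been panned away.

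In the usual route, eIF2 carries the initiator tRNA to the small ribosomal subunit together with eIF1, eIF1A, eIF3 and eIF5, while eIF4E binds the cap, eIF4G bridges it to eIF3, and the helicase eIF4A opens the 5′ leader. Initiation is held in check where 4E-BP proteins occupy eIF4E and where kinases phosphorylate eIF2 so that its exchange factor eIF2B cannot recharge it. Growth cones of RGC axons hold mRNAs and ribosomes, and mTORC1, the kinase complex that inactivates 4E-BP proteins, is a known regulator of axon growth in these cells.

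Many mRNAs of the translation machinery begin with a run of C and T bases at the transcription start, the feature of TOP mRNAs, whose translation follows mTORC1. Start-site windows of 30 bases, from 10 bases before the first transcribed base to 20 bases from it on, were read from the RefSeq promoter table of GRCm38.p6 for the 42 initiation factor genes with an entry. They are shown to let the starts of genes with such a run be compared with those of the 2 highly expressed eIF4A genes, which have none. Capitals mark runs of at least 8 C or T.

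Eif3f: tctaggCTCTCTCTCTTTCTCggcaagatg
Eif3l: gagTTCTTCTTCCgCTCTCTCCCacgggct
Eif2b5: CTCTTTCTCTCCCTgcaactacaccttcgc
Eif2s3x: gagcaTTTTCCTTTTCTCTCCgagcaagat
Eif2s3y: ggccacagccaCTTCCTTCTTTCgtgagca
Eif4a1: gtaacgtcacgtcgagttgcagagcgccgg
Eif4a2: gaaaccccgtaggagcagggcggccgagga

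These windows lie at chr7:108934405-108934434 on the plus strand for Eif3f, at chr15:79075213-79075242 on the plus strand for Eif3l, and at chr16:20498807-20498836 on the plus strand for Eif2b5. That of Eif2s3x lies at chrX:94212632-94212661 on the minus strand and that of Eif2s3y at chrY:1010585-1010614 on the plus strand. Eif4a1 starts at chr11:69672404-69672433 on the minus strand and Eif4a2 at chr16:23107458-23107487 on the plus strand. The last 20 bases of each window are the start of the first exon. A run of at least 8 C or T was found in 9 of the 42 genes, which is 21.4% against 13.0% of all 27025 genes of the table. A run counted at any place in the window and at any listed start of a gene, so it need not begin the mRNA. That of Eif4e lay wholly before the first transcribed base, as did the runs at some listed starts of Eif4enif1. Eif2ak4, Eif4e and Eif4enif1 also have a listed start without a run. In the 300 bases around the start, on either strand, CACGTG was found in 10 of the 42 (23.8% against 8.09% of all genes), CCGGAAGT in 8 (19.0% against 4.31%) and TGACGTCA in none (2.03% of all genes). Of the 9 genes with a run, 5 fell from P5 to Adult, with a median log2 change of -0.44; of the 33 without, 21 fell, with a median of -0.57; of all genes tested, 33.7% fell.

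Levels are in FPKM, a fragment count divided by transcript length and by library size, summed here over the isoforms of a gene. Because FPKM are scaled by length, they allow levels of different genes to be set side by side. At E18 the highest levels were those of Eif4a2, a helicase (404 and 441 FPKM), Eif4g2, an eIF4G relative that lacks the eIF4E-binding site (419 and 375), and Eif4a1, the closest relative of Eif4a2 (383 and 386). The range of Eif4g2 overlapped those of Eif4a1 and Eif4a2, which did not overlap each other. All 3 genes stood well above Eif5a, the next (180 and 200.2). The other end of the range was held by the inhibitor gene Eif4ebp3 (1.10 and 0.850) and by Eif3j2 (1.42 and 0.767), a second copy of the gene for eIF3j. Eif3j2 was the single member below a mean of 1 FPKM over the 6 libraries and was not tested, which left 54 genes. The kinase gene Eif2ak2 and the oocyte cap-binding gene Eif4e1b were not analysed here.

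**Figure D1:**
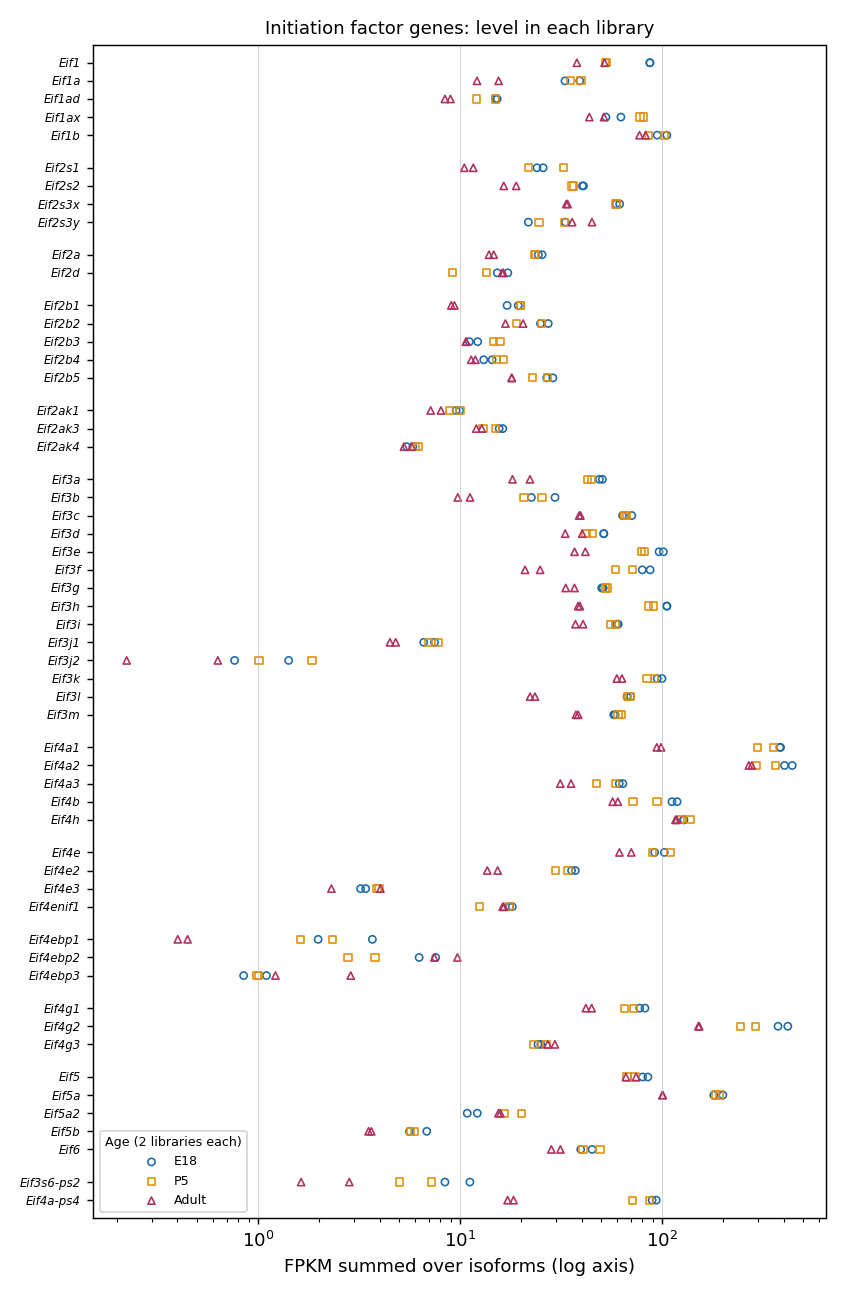
Level of each initiation factor gene (FPKM summed over isoforms, log axis) in each of the 6 libraries, ordered by complex from eIF1 at the top to the pseudogenes at the bottom; circles are E18, squares P5 and triangles Adult. Most Adult triangles stand to the left of the other symbols, while those of Eif2s3y, Eif4ebp3 and Eif4g3 stand to their right.

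The Adult libraries differed from the younger ones in make-up as well as in age. The 15 RGC markers in the table summed to 4622 to 5295 FPKM at E18 and P5 and to 563 and 378 FPKM in Adult. None was at 0 in any library, and only Nefh was higher in Adult (12.7 and 11.7 FPKM) than at E18 (3.19 and 4.05). Markers of rods summed to 5.90 to 12.3 FPKM in the younger libraries and to 6122 and 751 FPKM in the Adult libraries. Amacrine cell markers (223 to 282 against 1084 and 1338 FPKM) and Müller glia markers (172 to 229 against 1339 and 1604) also had higher sums in Adult. So did bipolar cell markers (7.75 to 13.5 against 101 and 107) and cone markers (0.151 to 1.93 against 73.2 and 69.5). Each gene of these groups and of the rod group was higher in both Adult libraries than in all younger ones, except Chat and Vim. Chat (amacrine) was at 0.0296 and 0.0199 FPKM in Adult against 1.02 and 0.0419 at E18. Vim (Müller) was at 20.4 and 27.1 in Adult against 48.7 and 43.4 at E18. Of the younger amacrine sums Pax6 held 216 to 258 FPKM. Protein-coding genes held 70.8 to 76.0% of all FPKM in the younger libraries and 38.0% and 33.7% in Adult. The part of these differences in the Adult results below was not tested. In bulk RNA, fewer cells of a type and less RNA per cell cannot be told apart. Progenitor markers were at 114 FPKM in E18 library 1 against 8.61 in E18 library 2, and the part of this gap in the E18 results was not tested.

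Summed over all members, initiation factor FPKM was 3611 and 3713 at E18, 3214 and 3171 at P5, then 2013 and 1962 in Adult. The Adult libraries lay below all others. Of the members' sums the 2 pseudogenes held 101 and 102 FPKM at E18, 91.8 and 78.8 at P5, then 20.1 and 20.1 in Adult. Divided by the FPKM of protein-coding genes, which leaves out the other RNA in a library, the sums with these pseudogenes were 0.971% and 0.947%, then 0.854% and 0.867%, then 0.661% and 0.682%. On this scale too the 3 ages did not overlap, and the order was the same.

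Between E18 and P5, 4 of 54 genes passed the test: Eif1, Eif4ebp2 and Eif4g2 fell and Eif5a2 rose. Of the members 5.56% were called lower and 1.85% higher, against 4.95% and 5.52% of all 14390 genes tested (10.5% in both directions), a share near or under the background. The median log2 change of the members was -0.12, against -0.03 for all genes tested. Counts rest on limma, fitted to log2(FPKM + 1) over all genes and called at a Benjamini-Hochberg adjusted p under 0.05; 12 members had an unadjusted p under 0.05. The labels do not say whether the 2 libraries of an age come from separate animals, so the p-values speak only of the spread between these libraries, which may be technical.

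None of these 4 calls was made in all 6 fits that left out 1 library. Without E18 library 1, E18 library 2 or P5 library a no member was called (5, 5 and 10 had an unadjusted limma p under 0.05). Without P5 library b the 1 call was Eif4b (log2 -0.68, limma adjusted p = 0.0479), and without Adult library 1 or 2 it was Eif1. Their adjusted p-values ran up to 0.429 for Eif1, 0.276 for Eif4ebp2, 0.239 for Eif4g2 and 0.264 for Eif5a2 over the 18 alternatives.

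Between P5 and Adult, 36 of 54 genes fell and 1, Eif4ebp2, rose. Over all genes tested, 33.7% were called lower and 26.2% higher; of the members 66.7% were called lower and 1.85% higher. The median log2 change was -0.57 for the members and -0.07 for all genes tested. The libraries of the 2 ages did not overlap for 50 of the 54 (92.6%), as for 78.7% of all genes tested, of which 59.8% were called. Against E18 the Adult libraries gave 36 falls and 1 rise, that of Eif5a2, with 34.4% of all genes called lower and 25.3% higher. The medians there were -0.64 for the members and -0.11 for all genes. Both comparisons use the same Adult libraries, so they are not independent.

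Of the 37 calls between P5 and Adult, 26 were made whichever library was left out. The 11 others were Eif1ad, Eif2b3, Eif2b4, Eif2b5, Eif3j1, Eif3s6-ps2, Eif4b, Eif4e, Eif4ebp1, Eif5b and Eif6, whose adjusted p then rose to at most 0.116. With every pseudocount, filter, scaling, isoform set and variance setting compared, 20 of the 37 were called. The 17 others were those 11 with Eif3i, Eif3k, Eif4a-ps4, Eif4a3, Eif4ebp2 and Eif4g2. Among these, the pseudogenes Eif4a-ps4 and Eif3s6-ps2 have no coding isoforms, and Eif4ebp1 (mean 1.75 FPKM) lies below the filter of 5 FPKM. They were thus not tested in every setting. The split of calls depended on scaling: after rescaling to TPM 51 genes were called lower and none higher, with the protein-coding genes of each library set to the same total, 24 genes were called lower and 5 higher, and with quantile normalization 28 and 5. Set against the median of all genes, the members' median lay between -0.60 and -0.32 under the 5 scalings compared, which include the main fit. A scaling by 1 value per library moves the members and all genes nearly alike, so this difference could change little there. Quantile normalization, which is not of that kind, gave -0.32.

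**Figure D2:**
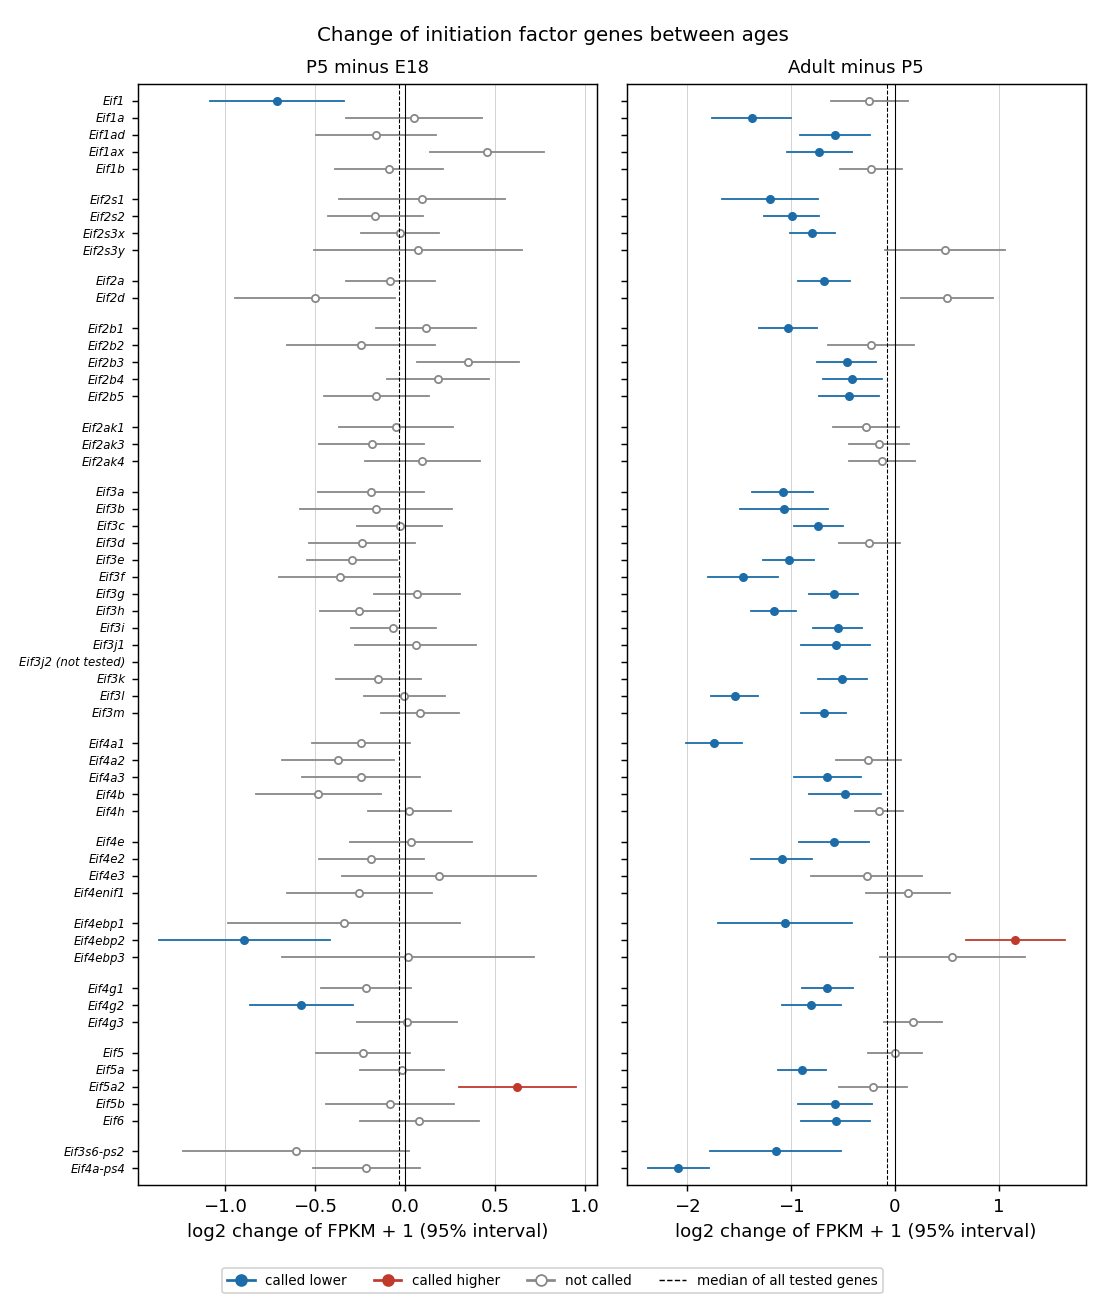
Change of log2(FPKM + 1) from E18 to P5 (left) and from P5 to Adult (right) for each tested gene, with its 95% interval from limma; filled points passed the test, the solid line is 0 and the dashed line is the median of all tested genes. On the right 36 filled points lie left of 0 and 1, Eif4ebp2, lies right of it.

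The scanning factors eIF1 and eIF1A, which hold the ribosome open until the start codon is found, are each made from a pair of genes. Eif1 was at 87.1 and 87.1 FPKM at E18, 52.4 and 53.3 at P5, then 52.0 and 37.9 in Adult. The E18 libraries lay above all others, and the fall from E18 to P5 was -0.71 ± 0.15 on the log2 scale (SE, limma adjusted p = 0.0385). With annotated coding isoforms alone the change was -0.15 (limma adjusted p = 0.429). Its partner Eif1b was at 94.7 and 106 FPKM at E18, 85.8 and 103 at P5, then 77.4 and 82.9 in Adult, and did not pass the test in any comparison.

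Eif1a was at 33.1 and 39.2 FPKM at E18, 39.8 and 35.1 at P5, then 15.5 and 12.1 in Adult. It was level between the younger ages and fell by 1.38 ± 0.16 from P5 to Adult (log2, limma adjusted p = 0.00061). Eif1ax, the X-linked gene for the same factor, was at 52.8 and 62.6, then 80.7 and 77.9, then 43.7 and 51.7 FPKM. Its highest libraries were those of P5, and it fell by 0.73 ± 0.13 from P5 to Adult (limma adjusted p = 0.00379). The ratio of Eif1a to Eif1ax was 0.627 and 0.625, then 0.493 and 0.451, then 0.356 and 0.235, with no overlap between ages. Eif1ad, a relative of eIF1A, was at 15.0 and 15.3, then 12.1 and 15.0, then 8.98 and 8.43 FPKM and fell from P5 to Adult, a call lost without Adult library 2 (0.0570).

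eIF2 has 3 subunits. The genes for alpha and beta and the X-linked gene for gamma fell from P5 to Adult. Eif2s1 (alpha, the subunit that the kinases phosphorylate) was at 24.1 and 25.8 FPKM at E18, 32.5 and 21.9 at P5, then 11.6 and 10.5 in Adult. Eif2s2 (beta) was at 40.4 and 40.9, then 35.9 and 36.5, then 19.0 and 16.5 FPKM. From P5 to Adult they fell by 1.20 ± 0.19 and 0.99 ± 0.11 on the log2 scale (limma adjusted p = 0.0023 and 0.000527). Both Adult libraries lay below all 4 younger ones for each gene.

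The gamma subunit is encoded on the X and on the Y chromosome. The sex of the animals is not among the sample facts used here, so its part in the levels of these genes was not tested. Eif2s3x was at 59.3 and 61.7 FPKM at E18, 59.2 and 59.7 at P5, then 34.1 and 33.6 in Adult, a fall of 0.79 ± 0.09 from P5 (log2, limma adjusted p = 0.000608). Eif2s3y was at 21.8 and 33.3, then 24.6 and 32.8, then 45.0 and 35.9 FPKM, and its change of 0.49 did not pass (95% interval -0.09 to 1.07), whereas it was called higher with quantile normalization (0.74) or equal totals of protein-coding genes (0.80). Its coding isoform alone, however, was at 6.10 and 10.9, then 10.7 and 11.7, then 2.86 and 4.30 FPKM, and fell by 1.43 from P5 to Adult (limma adjusted p = 0.00269 among coding isoforms summed per gene). Its main isoform with a retained intron, Eif2s3y-205, was at 4.94 and 7.98 FPKM at P5 and 14.5 and 9.26 in Adult, a change that did not pass. Of the most abundant Eif2s3x isoform 85.2% of the 31-base stretches also occur in other transcripts, mostly the pseudogene Gm2223, so the X-linked value is uncertain.

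Other routes to the initiator tRNA run through eIF2A and eIF2D. Eif2a was at 25.5 and 24.4 FPKM at E18, 23.4 and 23.7 at P5, then 14.7 and 13.9 in Adult, and fell by 0.68 ± 0.10 from P5 (log2, limma adjusted p = 0.00182). Eif2d was lowest at P5 (13.6 and 9.22 FPKM) and at 15.3 and 17.3 at E18 and 16.2 and 16.4 in Adult. Its change of 0.50 from P5 to Adult did not pass (limma adjusted p = 0.0544). It was called higher with a filter of 5 FPKM (limma adjusted p = 0.0427), quantile normalization (0.57, 0.0367), equal protein-coding totals (0.81, 0.00821) or without P5 library a (0.76, 0.00963).

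eIF2B, the exchange factor that recharges eIF2 with GTP, has 5 subunits, of which 4 fell from P5 to Adult and 2 fell against E18. Eif2b1 (alpha) fell furthest: it was at 19.4 and 17.1 FPKM at E18, 19.9 and 19.9 at P5, then 9.06 and 9.39 in Adult. Its change from P5 was -1.03 ± 0.12 on the log2 scale (limma adjusted p = 0.00057). Eif2b3, Eif2b4 and Eif2b5 fell by 0.46, 0.41 and 0.44, and Eif2b2 did not pass at -0.23. With coding isoforms alone Eif2b2 fell by 0.77 from P5 and by 0.91 against E18 (limma adjusted p = 0.00292 and 0.00127). The call of Eif2b4 from P5 to Adult was lost there (-0.35, limma adjusted p = 0.0510). Eif2b3 (gamma) stood at 11.1 and 12.2 FPKM at E18, 15.8 and 14.6 at P5, then 10.7 and 10.7 in Adult, so its Adult libraries lay close to those of E18.

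The calls of Eif2b3, Eif2b4 and Eif2b5 were each lost without Adult library 1 or without Adult library 2 (adjusted p from 0.0526 to 0.0891) and with equal totals of protein-coding genes. Without P5 library a those of Eif2b4 and Eif2b5 were lost too (0.0721 and 0.0589), and without E18 library 1 or 2 that of Eif2b4 (0.0553 and 0.0562).

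None of the 3 eIF2 kinases in the table passed the test in any comparison; by limma 0, 0 and 2 of them had an unadjusted p under 0.05 in the first step, in the second and over both. Eif2ak1 (the heme-regulated kinase) was at 9.58 and 9.96 FPKM at E18, 10.02 and 8.85 at P5, then 8.06 and 7.17 in Adult. Eif2ak3 (PERK, which responds to endoplasmic reticulum stress) was at 15.6 and 16.3, then 13.0 and 14.9, then 12.8 and 12.1 FPKM. Eif2ak4 (GCN2, which responds to uncharged tRNA) was at 5.46 and 5.85, then 6.24 and 5.99, then 5.29 and 5.78 FPKM. The 95% intervals of their changes from P5 to Adult were -0.59 to 0.04, -0.45 to 0.14 and -0.44 to 0.19 on the log2 scale. After rescaling to TPM all 3 were called lower in Adult, with a median log2 change of -0.88 from P5 and -0.91 against E18, where the median of all genes was -0.71 and -0.65. Against E18, Eif2ak3 lay at the threshold (limma adjusted p = 0.0502) and was called with equal medians (0.0473), a filter of 5 FPKM (0.0421), 2 ages alone (0.0342) or without P5 library a (0.0329) or b (0.0332).

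eIF3 is the largest initiation factor and the platform on which the others gather. All 13 tested subunit genes had lower values in both Adult libraries than in both P5 libraries, as did 43.1% of all genes tested. Of the 13 subunit genes 12 fell, and Eif3d did not pass (-0.25, 95% interval -0.54 to 0.05). With coding isoforms alone Eif3d fell by 0.56 (limma adjusted p = 0.00253). Against E18 all 13 fell, though Eif3d and Eif3j1 were not called there without E18 library 1, E18 library 2 or Adult library 2 (adjusted p from 0.0581 to 0.147). With quantile normalization 10 of the 13 were called lower from P5 to Adult and 11 against E18, and with equal protein-coding totals 9 and 8; TPM called all 14 it tested. Their median log2 change from P5 to Adult was -0.74, or -0.66 relative to the median of all genes. With quantile normalization this difference was -0.64. The scalings by 1 value per library, which could change it little, gave -0.63 to -0.75. Between E18 and P5 none of the 13 was called by limma, and 3 had an unadjusted p under 0.05.

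The subunits did not move by one amount. Eif3l was at 67.1 and 69.9 FPKM at E18, 67.4 and 69.5 at P5, then 23.5 and 22.3 in Adult. It was level between the younger ages and then 2.99-fold lower (log2 -1.54 ± 0.09, limma adjusted p = 8.1e-05). Eif3f was at 79.9 and 87.4, then 59.1 and 71.2, then 24.9 and 21.01 FPKM, with a log2 change of -1.46 ± 0.14 from P5 to Adult (limma adjusted p = 0.000312). At the other end Eif3k, the subunit at the highest mean level, was at 94.7 and 99.97, then 91.6 and 84.3, then 63.4 and 59.8 FPKM. Its log2 change from P5 was -0.51 ± 0.10 (limma adjusted p = 0.00501), a call lost with quantile normalization (-0.17, adjusted p = 0.145) or equal protein-coding totals (-0.19, 0.112).

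Of the 2 subunits with an MPN domain, eIF3f and eIF3h, the genes changed by -1.46 and -1.17. Those with a PCI domain ranged widely, from Eif3l at -1.54 over Eif3a (-1.08), Eif3e (-1.02), Eif3c (-0.74) and Eif3m (-0.69) to Eif3k at -0.51. The remaining subunit genes were Eif3b (-1.07), Eif3g (-0.59), Eif3j1 (-0.57), Eif3i (-0.55) and Eif3d (-0.25). Eif3e, whose change from E18 to P5 had the smallest p of the complex, was at 96.7 and 102 FPKM at E18, 79.5 and 82.0 at P5, then 41.7 and 36.9 in Adult. Its E18 to P5 change of -0.29 did not pass (limma adjusted p = 0.122).

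Several of these values rest on sequence that other genes share. Of the 31-base stretches in the most abundant annotated isoform, 53.7% for Eif3m, 42.0% for Eif3e, 41.3% for Eif3j1 and 37.4% for Eif3h also occur in transcripts of another gene, and 94.9% for Eif3j2. Reads there cannot be placed on one gene alone, so the values of these genes are uncertain. Eif3l and Eif3a share none and Eif3f shares 0.403%.

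The helicase eIF4A is encoded by a pair of closely related genes. Eif4a1 was at 383 and 386 FPKM at E18, 355 and 298 at P5, then 98.95 and 94.2 in Adult. Eif4a2 was at 404 and 441, then 364 and 292, then 278 and 269 FPKM. Eif4a1 was thus 3.38-fold lower in Adult than at P5 (log2 -1.74 ± 0.11, limma adjusted p = 9.41e-05), whereas the change of Eif4a2 did not pass (-0.25, 95% interval -0.57 to 0.06).

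Their ratio within a library, which no scaling of the library by 1 factor can alter, was 0.948 and 0.876 at E18, 0.975 and 1.02 at P5, then 0.356 and 0.350 in Adult. Both genes were thus close to equal in the 4 younger libraries, and Eif4a1 was the lower one in both Adult libraries. With 2 against 2 libraries an exact two-sided permutation test cannot go below p = 0.333, which is what it gave. Against E18, Eif4a2 fell by 0.62 ± 0.13 (log2, limma adjusted p = 0.00651), a call lost with equal protein-coding totals (-0.26), quantile normalization (-0.14) or coding isoforms alone (-0.37).

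The value of Eif4a1 may not be fully kept apart from that of Eif4a-ps4, a processed pseudogene on chromosome 1 (60703932 to 60705149, plus strand, GRCm38). Of its 31-base stretches 97.4% occur in Eif4a1 or other genes, and 67.5% of those of Eif4a1 occur elsewhere. Eif4a-ps4 was listed at 89.4 and 93.6 FPKM at E18, 86.8 and 71.6 at P5, then 17.2 and 18.4 in Adult, a log2 change of -2.09 ± 0.12 from P5 (limma adjusted p = 7.43e-05). Eif4a1 and the pseudogene thus both fell, and for both the Adult libraries lay below all others. Of Eif4a2 37.7% and of Eif4a3 44.8% of the stretches are shared, and of Eif1 37.2%. Stretches were counted on annotated sequences, and for Eif4a2 that sequence has 1227 bases where the deposited isoform Eif4a2-203 has 1875. The share for Eif4a2 may thus differ from that of the isoform measured. A second pseudogene, Eif3s6-ps2, shares 41.4% of its stretches with Eif3e and other genes and was at 11.2 and 8.43, then 5.02 and 7.25, then 2.84 and 1.64 FPKM. Its fall from P5 was not called without P5 library b (0.0623) or Adult library 2 (0.0508).

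Eif4a3, which sits in the exon junction complex rather than on the cap, was at 64.1 and 61.5 FPKM at E18, 47.4 and 59.0 at P5, then 35.5 and 31.4 in Adult. It fell by 0.65 ± 0.13 from P5 (log2, limma adjusted p = 0.00682), a call lost with quantile normalization (-0.37, adjusted p = 0.0600) or equal protein-coding totals (-0.33, 0.0831). The helicase cofactor gene Eif4b was at 112 and 119, then 71.9 and 94.4, then 57.0 and 60.5 FPKM; its log2 change was -0.48 in each step and passed in the second (limma adjusted p = 0.0271). That call was lost without either E18 library, P5 library b or either Adult library (highest adjusted p = 0.116). Eif4h, the other cofactor, was at 117 to 138 FPKM in all 6 libraries and did not pass.

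Of the cap-binding genes, Eif4e and Eif4e2 fell from P5 to Adult. Eif4e was at 92.0 and 103 FPKM at E18, 111 and 89.6 at P5, then 61.6 and 70.5 in Adult, a log2 change of -0.59 ± 0.14 from P5 (limma adjusted p = 0.0116). The call was lost without P5 library a (0.0514) or Adult library 1 (0.0676). Eif4e2 (4EHP, a cap-binding protein that does not bind eIF4G) was at 35.7 and 37.3, then 29.8 and 34.3, then 13.7 and 15.4 FPKM. It fell by 1.09 ± 0.12 from P5 (limma adjusted p = 0.000544). The ratio of Eif4e to Eif4e2 was 2.58 and 2.76 at E18, 3.71 and 2.62 at P5, then 4.51 and 4.58 in Adult. Eif4e3 stayed between 2.31 and 4.04 FPKM, with the Adult libraries overlapping both other ages, and Eif4enif1, the transporter that carries eIF4E into the nucleus, between 12.5 and 18.2.

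Of the 4E-BP inhibitors, Eif4ebp2 was the single member called higher from P5 to Adult. It was at 7.59 and 6.28 FPKM at E18, 2.79 and 3.801 at P5, then 7.47 and 9.72 in Adult. The P5 libraries lay below all others. The fall from E18 to P5 was -0.89 ± 0.20 and the rise from P5 to Adult 1.16 ± 0.20 on the log2 scale (limma adjusted p = 0.0406 and 0.00299). The rise was called whichever library was left out and was 0.56 after rescaling to TPM (limma adjusted p = 0.0535). Relative to its target, Eif4e stood at 12.1 and 16.3 times the FPKM of Eif4ebp2 at E18, 39.6 and 23.6 times at P5 and 8.24 and 7.25 times in Adult, with no overlap between ages.

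Eif4ebp1 was low and fell further: it was at 3.69 and 1.99 FPKM at E18, 2.34 and 1.63 at P5, then 0.402 and 0.449 in Adult (log2 -1.06 ± 0.27 from P5, limma adjusted p = 0.0148). Without P5 library a or Adult library 1 the adjusted p was 0.0844 or 0.0570. Eif4ebp3 was at 0.850 to 1.10 FPKM in the younger libraries and at 1.22 and 2.88 in Adult, and did not pass. Of its stretches 66.4% are shared with another annotated gene. Eif4ebp2 shares 0.0869% of its stretches.

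Of the 3 scaffold genes, Eif4g1 and Eif4g2 fell from P5 to Adult. Eif4g1, the main scaffold, was at 77.6 and 82.4 FPKM at E18, 72.2 and 65.4 at P5, then 44.9 and 42.0 in Adult, and fell by 0.65 ± 0.10 from P5 (log2, limma adjusted p = 0.00223). Eif4g3 was at 24.3 and 25.1, then 23.2 and 26.8, then 27.2 and 29.5 FPKM, with a change of 0.18 from P5 that did not pass (95% interval -0.10 to 0.46). It was called higher with quantile normalization (0.36, limma adjusted p = 0.0317) or equal protein-coding totals (0.49, 0.0172), and lower under TPM (-0.56, 0.00549). Their ratio was 3.19 and 3.28, then 3.11 and 2.44, then 1.65 and 1.42, so the Adult libraries lay below all others. Eif4g2 was at 419 and 375, then 245 and 289, then 151 and 153 FPKM, with 3 ages that did not overlap. It fell by 0.57 ± 0.12 in the first step and 0.80 ± 0.12 in the second (limma adjusted p = 0.0344 and 0.00168). The second call was lost with quantile normalization (-0.39, adjusted p = 0.0579). With coding isoforms alone the first fall was -0.23 (limma adjusted p = 0.162).

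Among the late-acting factors, eIF5 makes eIF2 hydrolyse its GTP, eIF5B joins the ribosomal subunits and eIF6 keeps them apart. Eif5 was at 85.1 and 80.2 FPKM at E18, 67.1 and 73.5 at P5, then 74.4 and 66.3 in Adult. Its change from P5 to Adult was -0.00 (95% interval -0.26 to 0.26), and with equal totals of protein-coding genes it rose by 0.32 (limma adjusted p = 0.0445). Eif5b and Eif6 fell by 0.57 each on the log2 scale (limma adjusted p = 0.0159 and 0.012). Both calls were lost without P5 library a or Adult library 2 (adjusted p from 0.0507 to 0.0638), and Eif6 changed by -0.03 with coding isoforms alone.

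eIF5A, which carries the modified lysine hypusine and relieves stalled ribosomes, is made from a ubiquitous and a restricted gene. Eif5a was at 180 and 200.2 FPKM at E18, 192 and 184 at P5, then 101 and 101 in Adult, a fall of 0.89 ± 0.10 from P5 (log2, limma adjusted p = 0.000488). Eif5a2 was at 10.9 and 12.2, then 16.7 and 20.1, then 15.9 and 15.5 FPKM. It rose from E18 to P5 by 0.63 ± 0.13 (limma adjusted p = 0.0376) and stood 0.42 ± 0.13 above E18 in Adult (limma adjusted p = 0.0355), where rescaling to TPM turned the sign (-0.17). The Adult call was lost without either E18 library (adjusted p = 0.190 and 0.0860) or either Adult library (0.118 and 0.0976). The ratio of Eif5a to Eif5a2 was 16.6 and 16.4, then 11.5 and 9.14, then 6.34 and 6.51. It was lower at each later age, with no overlap.

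**Figure D3:**
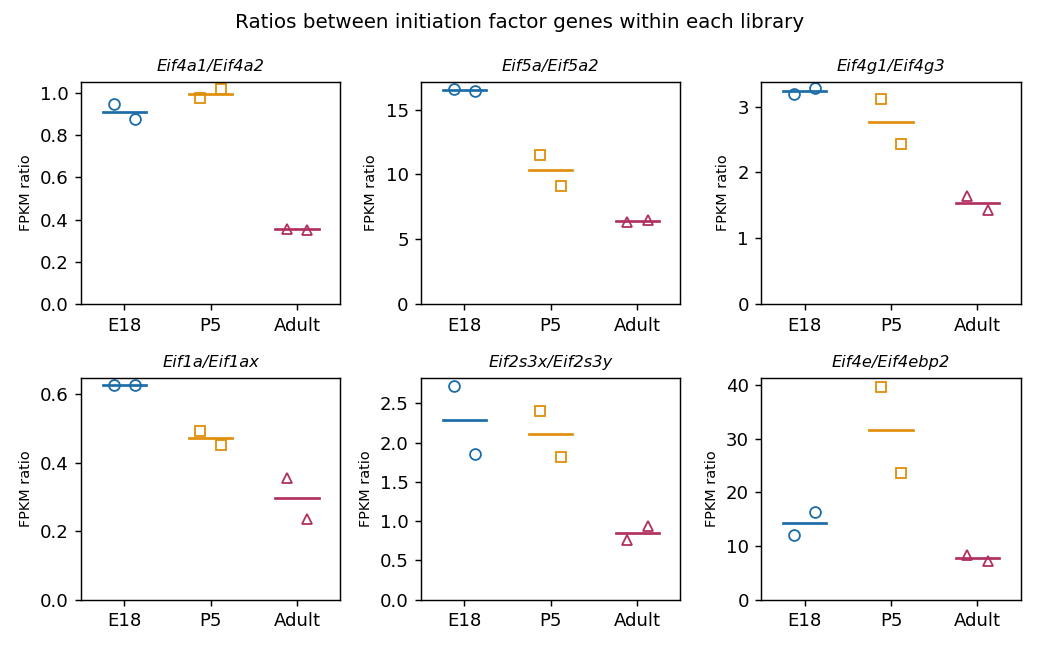
Ratio of the FPKM of 2 initiation factor genes within each library at the 3 ages; symbols are libraries, bars the mean of 2, and each axis starts at 0. The ratio of Eif4a1 to Eif4a2 lay at 0.876 to 1.02 in the younger libraries and at 0.350 and 0.356 in Adult, and that of Eif4e to Eif4ebp2 was highest at P5.

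The genes above are sums of isoforms, and the isoforms did not always move as one. Of the 239, 205 were listed as equal to an annotated transcript and 34 as variants, and 181 reached a mean of 1 FPKM. From P5 to Adult 67 isoforms fell and 15 rose; of all isoforms tested 24.1% were called lower and 19.2% higher (43.3% in all). Against E18 the Adult counts were 86 and 8, beside 26.8% and 17.9% of all isoforms (44.7% in all). The latter counts fell to 53 and 6 without E18 library 1 and to 50 and 5 without E18 library 2. From E18 to P5, 3 fell and none rose by limma, beside 0.824% and 0.804% of all isoforms (1.63% in all); 60 of the 181 had an unadjusted p under 0.05.

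Coding isoforms and isoforms with a retained intron differed in their counts. From P5 to Adult 49 of 90 coding isoforms fell and 5 rose, whereas 5 of 46 isoforms with a retained intron fell and 6 rose. Over all isoforms tested, of any type, 24.1% were called lower and 19.2% higher. From E18 to P5 the median log2 change was -0.08 for coding isoforms and -0.69 for those with a retained intron, against -0.07 for all isoforms tested. The share of the members' FPKM in retained-intron isoforms was 8.06% and 7.45% at E18, 4.54% and 5.46% at P5, then 9.76% and 7.54% in Adult, lowest in both P5 libraries. Coding isoforms held 77.3% and 79.0%, 85.2% and 83.2%, and 79.3% and 82.2%. Counts, medians and shares by transcript type were not computed over all genes. Whether these differences are particular to initiation factors was thus not tested.

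In Eif4a2 the retained-intron isoforms Eif4a2-205 (33.5 and 33.8 FPKM at E18, 17.1 and 17.0 at P5) and Eif4a2-212 (21.5 and 20.96, then 10.9 and 11.9) were 2 of the 3 isoforms called from E18 to P5 (log2 -0.94 ± 0.14 and -0.84 ± 0.13, limma adjusted p = 0.0448 and 0.0454). Its main coding isoform Eif4a2-203 was at 177 and 198, then 214 and 134, then 147 and 163 FPKM. P5 overlapped both other ages, the E18 libraries lay above the Adult ones, and no comparison was called. The third call was an unannotated 1667-base variant of Eif1, at 11.3 and 10.9 FPKM at E18 and 2.52 and 3.58 at P5. The annotated Eif1-201 was between 24.4 and 29.9 FPKM in all 6 libraries. None of these 3 calls was made in a fit that left out 1 library.

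In Eif5, whose change as a gene between P5 and Adult did not pass, isoforms differed in course. Eif5-202, the coding isoform of 4050 bases, was at 24.6 and 27.0 FPKM at E18, 30.9 and 36.2 at P5, then 46.6 and 39.3 in Adult. It stood 0.71 ± 0.15 higher in Adult than at E18 (log2, limma adjusted p = 0.0114). A 5801-base variant of it went the other way, from 14.7 and 12.6 FPKM at E18 over 5.58 and 6.20 at P5 to 0.000662 and 1.12 in Adult. In Eif4e2, the coding isoform Eif4e2-204 was at 14.8 and 14.9 FPKM at E18, 10.7 and 13.9 at P5, then 0.224 and 0 in Adult, while Eif4e2-203 rose from P5 (0.785 and 1.28) to Adult (2.46 and 2.59; log2 0.80 ± 0.21, limma adjusted p = 0.0269). The minor coding isoform Eif5a-201 rose as its gene fell, from 1.07 and 0.854 FPKM at P5 to 7.07 and 4.02 in Adult (log2 1.70 ± 0.28, limma adjusted p = 0.00514).

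**Figure D4:**
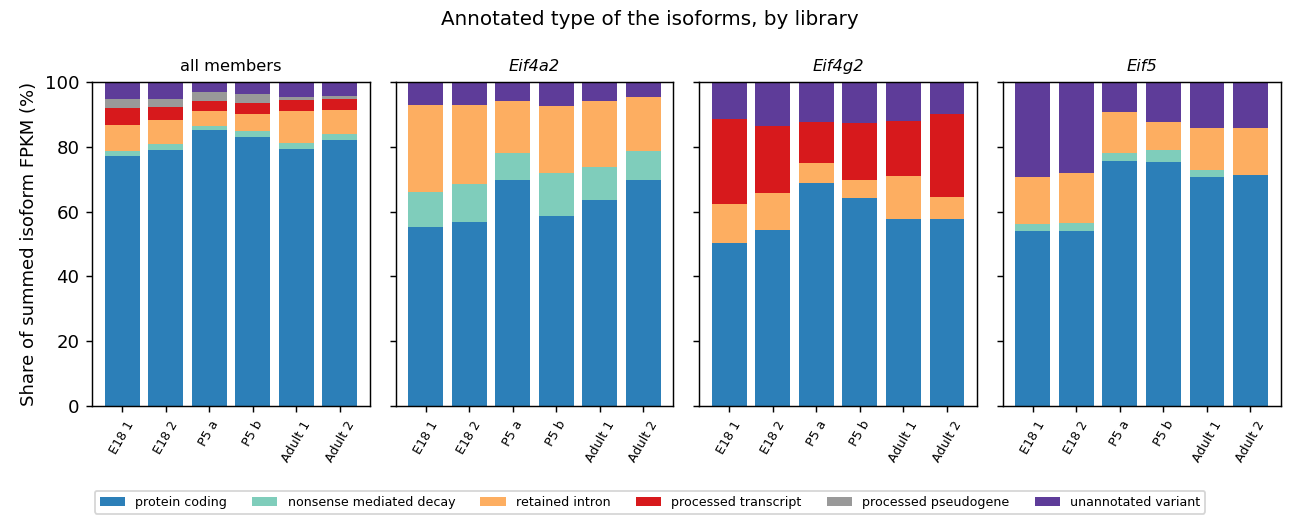
Share of the summed isoform FPKM (%) held by each annotated transcript type in each library, for all initiation factor genes together and for Eif4a2, Eif4g2 and Eif5. Over all initiation factor genes the retained-intron share was 4.54% and 5.46% at P5, below that of every E18 and Adult library. The same share over all other genes was not computed.

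Genes that steer initiation without being initiation factors were read from a list of which 43 were tested. From P5 to Adult 17 of them fell and 7 rose, against E18 24 fell and 8 rose, and from E18 to P5 4 fell and 2 rose. Of all genes tested, 33.7% were called lower and 26.2% higher from P5 to Adult (59.8% in both directions). Against E18 these shares were 34.4% and 25.3% (59.7%), and from E18 to P5 4.95% and 5.52% (10.5%). From E18 to P5 none was called without E18 library 1, E18 library 2 or P5 library a, and 1 without P5 library b. Adult against E18, the 32 calls were 22 without E18 library 1 and 21 without E18 library 2. The split depends on scaling: with equal protein-coding totals the counts from P5 to Adult were 10 lower and 11 higher, and after rescaling to TPM 35 lower and 3 higher.

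Partners of the ternary complex and of start-site selection all had lower values in both Adult libraries than in the younger ones. So did 43.1% of all genes tested against P5 and 47.0% against E18. Of the 8 partners, 6 fell from P5 and 8 against E18, beside 33.7% and 34.4% of all genes called lower. Bzw1, an eIF5 mimic that tightens start-codon choice, was at 151 and 172 FPKM at E18, 192 and 187 at P5, then 56.2 and 61.7 in Adult. It fell by 1.67 ± 0.11 from P5 (log2, limma adjusted p = 9.24e-05). Its paralog Bzw2 was at 121 and 143, then 133 and 119.9, then 30.9 and 22.2 FPKM (log2 -2.22 ± 0.17, limma adjusted p = 0.000167). With annotated isoforms alone the change of Bzw2 was 0.02. Of 5 genes for poly(A)-binding proteins and partners, 3 fell from P5 and 5 against E18, among them Pabpc1 (43.6 and 38.3, then 33.0 and 32.4, then 22.4 and 24.0 FPKM) and its activator Paip1 (98.6 and 109.5, then 108.9 and 104.5, then 60.4 and 66.5).

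Regulators of eIF4E and eIF4A gave 1 fall and 2 rises from P5 among 7. Cyfip2, which binds eIF4E with the fragile X protein and is also part of the actin-regulating WAVE complex, was at 33.2 and 32.7, then 26.2 and 32.6, then 105 and 135 FPKM. Its rise from P5 was 1.99 ± 0.16 (log2, limma adjusted p = 0.000189). Mknk1, a kinase of eIF4E, was at 4.53 and 4.55, then 7.46 and 6.35, then 14.01 and 13.7 FPKM (0.91 ± 0.13, limma adjusted p = 0.00159); with coding isoforms alone its change was 0.46 (0.124), and with TPM 0.24 (0.186). Pdcd4, an inhibitor of eIF4A singled out after its values were seen, was at 48.4 and 57.0, then 83.0 and 86.3, then 45.6 and 42.8 FPKM, highest in the P5 libraries. Its rise of 0.68 from E18 (limma adjusted p = 0.0228) was not called without either E18 library or either P5 library (up to 0.177).

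In the mTORC1 group, 2 genes fell and 3 rose from P5 among 9. Rptor, the substrate-binding subunit, was at 8.96 and 7.93, then 8.01 and 9.11, then 17.7 and 17.5 FPKM, and Mlst8, another subunit, at 9.40 and 9.07, then 8.97 and 7.74, then 14.6 and 13.8. Their rises from P5 were 0.97 ± 0.13 and 0.71 ± 0.13 (log2, limma adjusted p = 0.00111 and 0.00369). After rescaling to TPM these were 0.28 and 0.02 and were not called. Mtor itself was between 21.02 and 23.8 FPKM in all 6 libraries.

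The integrated stress response, which starts at the eIF2 kinases, held the largest change among the 43 genes. Impact, an inhibitor of GCN2, was at 12.9 and 13.2 FPKM at E18, 18.4 and 20.4 at P5, then 169 and 191 in Adult. The 3 ages did not overlap, and the rise from P5 was 3.15 ± 0.11 on the log2 scale (limma adjusted p = 2.42e-05). The stress-induced factor gene Ddit3 was at 20.3 and 19.3, then 9.12 and 7.55, then 30.0 and 31.5 FPKM, with P5 lowest (log2 -1.16 ± 0.13 and then 1.77 ± 0.13, limma adjusted p = 0.00958 and 0.000123). Atf4, the factor translated when eIF2 is phosphorylated and singled out after its values were seen, was at 206 and 204, then 127 and 121, then 96.6 and 85.3 FPKM. It fell by 0.73 ± 0.10 and then by 0.44 ± 0.10 (limma adjusted p = 0.015 and 0.00987). The falls of Atf4 and Ddit3 from E18 to P5 were each lost without E18 library 1 (0.136 and 0.107), E18 library 2 or P5 library a, and that of Atf4 also without P5 library b (0.0542). The rise of Impact from E18 to P5 (0.54, limma adjusted p = 0.0346) was called in none of the fits without 1 library. The second fall of Atf4 was not called with equal protein-coding totals (-0.12) or quantile normalization (-0.08).

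The enzymes that make hypusine on eIF5A are Dhps and Dohh. Dhps was at 39.3 and 44.5, then 67.5 and 48.6, then 28.0 and 27.8 FPKM and fell by 1.01 ± 0.17 from P5 (log2, limma adjusted p = 0.00271), or by 0.20 with coding isoforms alone (0.346). Dohh was at 15.1 and 16.9, then 20.9 and 20.9, then 17.5 and 16.4 FPKM and did not pass. Of the 4 partners of eIF4A3 in the exon junction complex, 3 fell from P5, beside 33.7% of all genes called lower. Magoh was at 70.1 and 65.4, then 60.2 and 68.1, then 26.5 and 24.3 FPKM (log2 -1.30 ± 0.11, limma adjusted p = 0.000213), and its paralog Magohb at 11.6 and 11.7, then 10.9 and 13.4, then 5.82 and 6.20 (-0.90 ± 0.14, 0.00199).

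**Figure D5:**
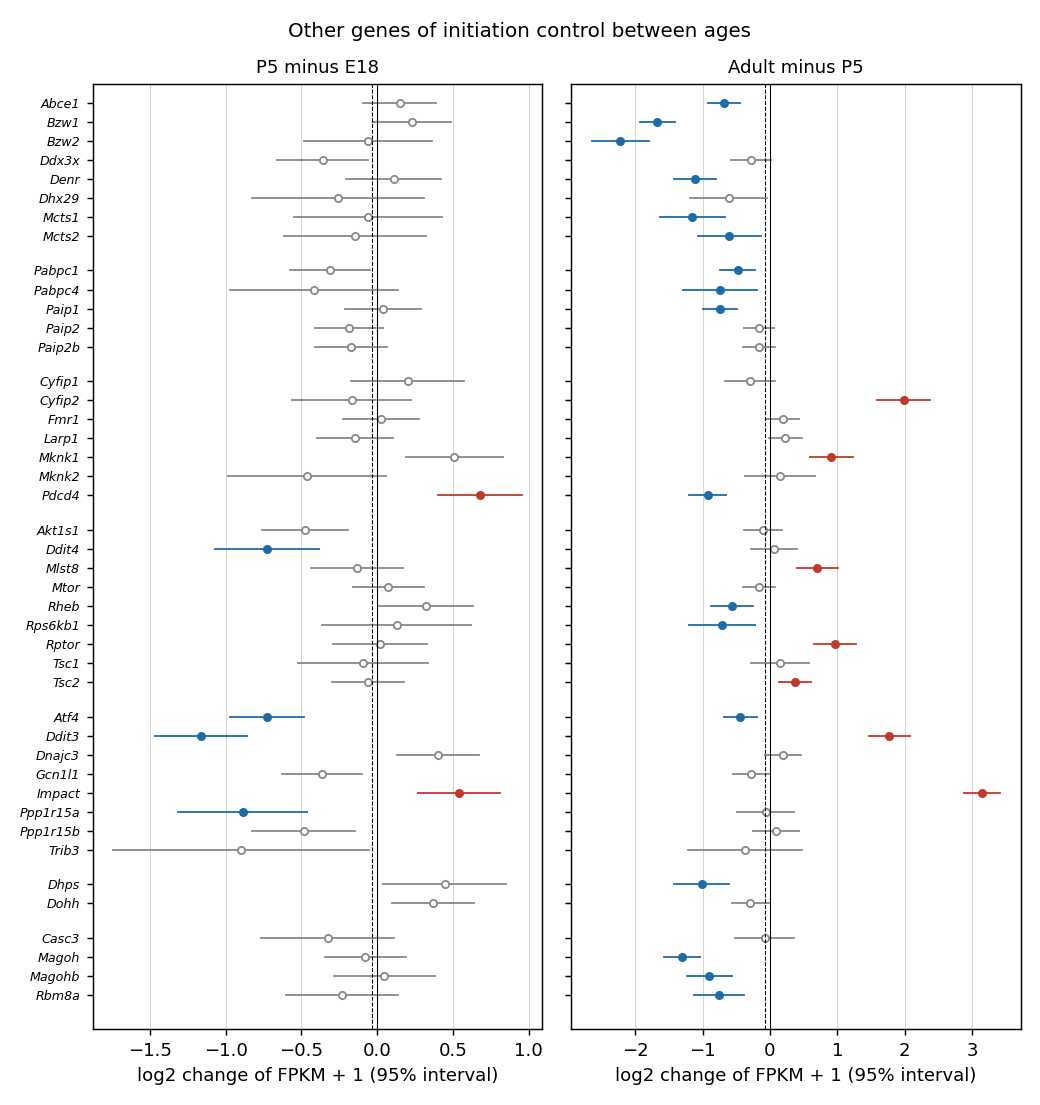
Change of log2(FPKM + 1) from E18 to P5 (left) and from P5 to Adult (right) for the 43 other genes of initiation control, with 95% intervals from limma; blue points were called lower, red points called higher and open points not called, and the dashed line is the median of all tested genes. Impact, at 3.15, is the point farthest to the right, and Bzw2, at -2.22, the one farthest to the left.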

How the data were processed

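The values are isoform FPKM as deposited by the authors for 6 libraries of polyA RNA, sequenced as paired reads of 100 bases. HISAT2, Cufflinks, Cuffdiff and the build mm10 are named, with no roles, per the submitters' processing notes; versions and scaling between libraries are not given in the sources used here. Isoform lengths come from the deposited table. Every isoform reached at least 1.00 FPKM in some column, 0.0001 stands for 0, and 9 further per-sample columns were not used. Both P5 columns have the same header and are told apart here as a and b. FPKM hold no counts: depth is unknown, and precision is limited by having 2 libraries an age.

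Isoform FPKM were summed per gene symbol. log2(FPKM + 1) was fitted with limma 3.58.1 (R 4.3.3; lmFit, contrasts.fit, eBayes with trend) over all 6 libraries, for features with a mean of at least 1 FPKM: 14390 genes and 34941 isoforms. Residual degrees of freedom were 3, to which the moderation added 3.26 (genes) or 2.88 (isoforms). Tests were two-sided, with Benjamini-Hochberg adjustment over all features of a comparison and a threshold of 0.05; the script was tested on simulated data. The scale understates changes of low genes. Errors of log2 changes are SE from limma.

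Transcript types come from GENCODE release 21 of GRCm38 (mm10), start sites from RefSeq GRCm38.p6. The members, the other gene lists and the tests were chosen with earlier results of these data known. Values are given for the paralog sets and kinases, in each complex for the member with the highest level and those with the smallest p, for members called against the median, for the 2 genes with the smallest p in each other list, and for isoforms with the highest level or called against their gene. Eif1ad, Eif2s1, Eif3f, Eif4h, Eif4enif1, Eif5, Eif5b, Eif6, Atf4, Pdcd4, Mtor and a few isoforms were named after their values were seen. Likeness of pattern over the 6 libraries is not given, because they fall into an Adult and a younger cluster. Alternatives were 2 pseudocounts, 2 filters, 4 scalings, annotated isoforms alone, no variance trend, 2 ages at a time, a replicate block and leaving out each library; coding isoforms alone was added after the data were seen.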

Additional observations from a re-analysis of the deposited data

How the results depend on the processing

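Of the gene counts, those of the Adult comparisons kept within 1.5 times: 28 to 51 from P5 to Adult and 28 to 50 against E18 over the alternatives (37 each in the report). Leaving out 1 library gave 28 to 37 and 32 to 40. The 4 genes called from E18 to P5 became 2 with quantile normalization (1 lower, 1 higher), 2 with equal totals of protein-coding genes (1 and 1), 2 with coding isoforms alone, 1 without a variance trend and 0 to 1 without 1 library; TPM gave 3, all higher. The 3 isoforms called from E18 to P5 became 0 with a pseudocount of 0.1, no filter, TPM, no variance trend, coding isoforms alone or without any 1 library, 1 with equal medians or equal protein-coding totals, 7 with a filter of 5 FPKM, and 8 with a pseudocount of 5 or 2 ages at a time. Isoform calls in Adult rose under TPM from 82 to 126 (from P5) and from 94 to 144 (against E18); the latter were 52 with coding isoforms alone and 55 to 92 without 1 library. Control genes called were 10 (from E18 to P5) and 38 (from P5 to Adult) under TPM, and 0 to 4 and 21 to 34 (Adult against E18) without 1 library.

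Under TPM, equal protein-coding totals, quantile normalization and a pseudocount of 5 the members' median from P5 to Adult was -1.32, -0.28, -0.38 and -0.49, and against E18 -1.23, -0.27, -0.45 and -0.56; TPM and protein-coding totals moved the median of all genes from P5 to Adult to -0.71 and 0.22. From E18 to P5 the median turned to 0.035 under TPM. TPM also turned, from P5 to Adult, Eif4enif1 (-0.59), Eif4g3 (-0.56) and Eif1-201 (-0.64), and against E18 Eif2d (-0.59), Eif4g3 (-0.41), Eif4g3-202 (-0.49), Eif5a2 (-0.17) and Dohh (-0.52). Eif5 turned to 0.34 with quantile normalization and 0.32 with equal protein-coding totals, Bzw2 to 0.016 with annotated isoforms alone, and Eif2s3y to -1.43 and -1.02 with coding isoforms alone. The cause of these moves was not tested, save that the settings without a library fit fewer samples.

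Replicate differences at E18 and in Adult correlated at 0.02 over genes, so they gave no sign that replicate numbers pair the samples. This cannot exclude pairing, because differences in cell markers within an age enter the correlation too. A replicate block on the E18 and Adult libraries gave 38 genes (37 lower), 82 isoforms and 31 control genes, with a median of -0.64; the P5 columns carry no number, so no block was possible there.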
